A study of Saccharomyces cerevisiae with 3 samples.

Results

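Mitochondrial ribosomal protein (MRP) genes are the nuclear genes for the proteins of the ribosome inside mitochondria. The 65 genes described here were taken by name, as every *S. cerevisiae* gene symbol of the array annotation of the form *MRPL*, *MRPS*, *RSM* or *MRP* followed by a number. This gave 66 symbols, and *MRP8* was left out because its product is not a ribosomal protein despite its name. The 65 are a small part of the 5449 *S. cerevisiae* genes measured, and the naming rule uses no expression value. They comprise 37 genes of the large subunit, namely 34 *MRPL* genes with *MRP7*, *MRP20* and *MRP49*, and 28 genes of the small subunit, namely 9 *MRPS* genes, 11 *RSM* genes and 8 further *MRP* genes.

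The strains compared were wild type (WT), *spt3Δ*, with *SPT3* replaced by *KanMX*, and *spt8Δ*, with *SPT8* replaced by *KanMX*. Spt3 and Spt8 are the subunits of the SAGA coactivator that contact TATA-binding protein. The sample labels name the WT strain as BY4742. The strain list of the study instead gives a *MATa* genotype with *his3Δ1*, *leu2Δ0*, *met15Δ0* and *ura3Δ0* for its parent. BY4742 lacks *LYS2*, and *LYS2* was not above background on any of the 3 arrays. *STE3*, the pheromone receptor gene of α cells such as BY4742, had signals of 3727, 1859 and 2544 on the WT, *spt3Δ* and *spt8Δ* arrays. *STE2*, the receptor gene of *MATa* cells, had 48.3, 29.5 and 50.7. Cells were grown in YPD, a rich glucose medium, in 5 mL cultures to an optical density of 0.7, and 200 ng of total RNA of each strain was labeled for 1 Affymetrix yeast array. Each strain has 1 array, so no value below has an SD, a standard error or a p-value, and no difference between strains or between gene groups was tested.

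Mitochondrial ribosomes translate the few mRNAs of the mitochondrial genome, most of which encode membrane subunits of the respiratory chain and ATP synthase. Nearly all their proteins are encoded in the nucleus, made in the cytosol and imported, and the ribosomal RNAs come from the mitochondrial genome. In budding yeast their genes are active in growth on glucose and even more so in respiratory growth. Their transcripts carry binding sites for Puf3, an RNA-binding protein that controls mRNAs of mitochondrial biogenesis. Part of the proteins descend from bacterial ribosomal proteins, whereas others are found only in mitochondria.

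The deleted genes had the signals that the labels call for. *SPT3* was at 288 in WT and not above background in *spt3Δ*, at least 43.2-fold lower, and *SPT8* was at 346 in WT and not above background in *spt8Δ*, at least 40.2-fold lower. All 65 MRP genes were read by 1 probe set each, none of them shared with another gene, and all were above background on all 3 arrays. Their signals ran from 112 to 2697 in WT, where the background was 7.17. A signal here is the array's brightness value on a linear scale, and a log2 ratio is the log2 of the signal in a mutant divided by that in WT. The authors scaled each array to the same trimmed mean, which left the median log2 ratio of all genes at 0.15 in *spt3Δ* and 0.067 in *spt8Δ*. MRP values are therefore read against those medians as well as against 0. Since RNA was taken from whole cultures and each array was scaled to itself, fewer cells of a type and less RNA per cell cannot be told apart.

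As the authors scaled the arrays, the MRP genes had higher signals in *spt3Δ* than in WT almost throughout. Of the 65 genes, 60 had a log2 ratio above 0, as had 61.2% of all genes, and 52 lay above the median of all genes. Their median log2 ratio was 0.41, equal to 1.33-fold, against 0.15 for all genes, with a middle range (first to last quartile) of 0.17 to 0.68. The highest 25% of all genes held 25 of them and the lowest 25% held 2. At least 1.5-fold higher were 19 MRP genes (29.2%), against 19.6% of all genes, and none was 1.5-fold lower, against 8.50% of all genes. Among the 5268 genes above background on all arrays, 19.3% were 1.5-fold higher and 7.37% were 1.5-fold lower. The ratios of the MRP genes ran from −0.33 to 1.12 with an SD over genes of 0.35. The SD was 0.68 over all genes and 0.59 over the 5268 above background on all arrays.

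None of the MRP genes lay 2 SD or more from the mean log2 ratio of all genes. That bound was set here on the log2 scale and was 2.78-fold upward in *spt3Δ*. The study also marks its calls at 2 SD, but the scale of its SD was not established here. That threshold was passed upward by 0.973% and downward by 2.73% of all genes. When the intensity-dependent trend of all genes was removed (loess), the median of the MRP genes was 0.18 and that of all genes −0.0057, 44 of the 65 were above 0, 45 lay above the median of all genes, and 10 were 1.5-fold higher. In that setting 9.08% of all genes were 1.5-fold higher and 12.3% were 1.5-fold lower, so the level that counts as unchanged moves the split of calls over all genes.

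**Figure D1:**
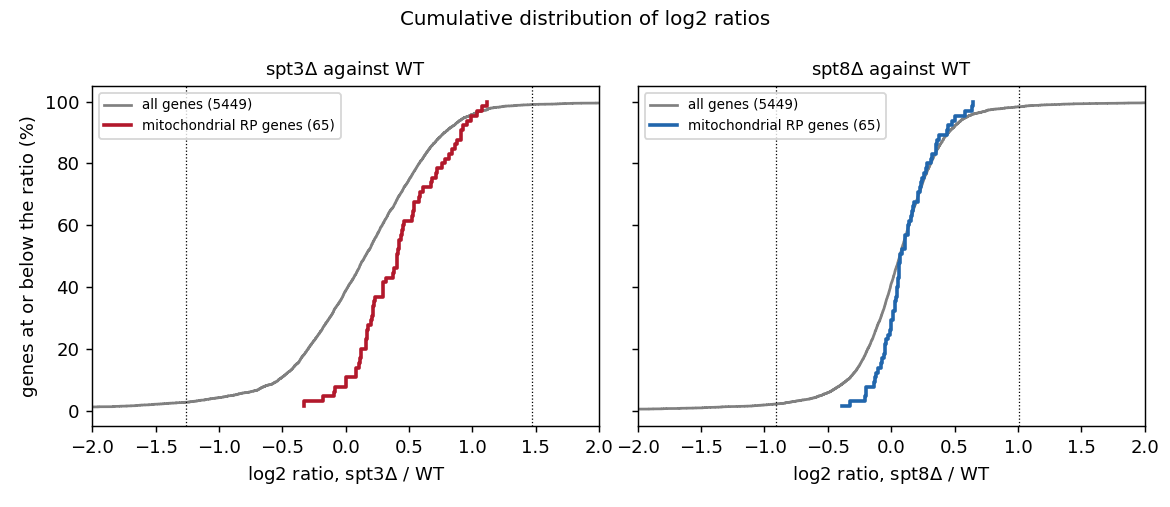
Cumulative share of genes (%, y axis) at or below each log2 ratio to WT (x axis, without the far tails) in *spt3Δ* (left) and *spt8Δ* (right), for all 5449 genes (gray) and the 65 mitochondrial ribosomal protein genes (color), with dotted lines at 2 SD from the mean of all genes. The MRP curve lies to the right of all genes in *spt3Δ*, with medians of 0.41 and 0.15, and crosses it near the median in *spt8Δ*, at 0.072 and 0.067.

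In the large subunit, 10 of 37 genes (27.0%) were at least 1.5-fold higher in *spt3Δ*, against 19.6% of all genes. *MRP20*, the counterpart of bacterial ribosomal protein uL23 at the mouth of the exit tunnel, had a signal of 139 in WT, 301 in *spt3Δ* and 217 in *spt8Δ*. Both mutants lay above WT, with folds of 2.17 for *spt3Δ* and 1.56 for *spt8Δ*, and its ratio in *spt3Δ* exceeded that of 97.4% of all genes. *MRPL22*, the counterpart of uL22, which lines the tunnel, had signals of 507, 955 and 608 in WT, *spt3Δ* and *spt8Δ*, 1.88-fold and 1.20-fold above WT. *MRPL40* (uL24) had 222, 384 and 278, with *spt3Δ* 1.73-fold and *spt8Δ* 1.25-fold above WT. *MRPL4* (uL29), which neighbors Mrp20 at the exit, had 154, 231 and 197, and lay just under the 1.5-fold line in *spt3Δ*, at 1.49-fold.

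Further large-subunit genes at least 1.5-fold higher in *spt3Δ* encode proteins of bacterial descent and proteins found only in mitochondria. *MRPL31*, a mitochondria-specific protein (mL60), had signals of 961 in WT, 1975 in *spt3Δ* and 1344 in *spt8Δ*, so that *spt3Δ* lay 2.05-fold and *spt8Δ* 1.40-fold above WT. *MRPL24* (bL28) had 237, 446 and 307, with *spt3Δ* 1.88-fold above WT. *MRP7*, whose bacterial counterpart L27 reaches toward the peptidyl transferase center, had 369, 608 and 472, with *spt3Δ* 1.65-fold above WT. In each of these genes *spt8Δ* lay between WT and *spt3Δ*. *MRPL25*, also called *AFO1* (mL59), whose loss is known to extend replicative lifespan, had signals of 438, 786 and 595 on the WT, *spt3Δ* and *spt8Δ* arrays, 1.79-fold and 1.36-fold above WT. *MRPL51* (mL43) was 1.84-fold, *MRPL44* (mL53) 1.76-fold and *MRPL28* (mL40) 1.60-fold above WT in *spt3Δ*. These 3 were 1.36-fold, 1.22-fold and 1.28-fold above WT in *spt8Δ*. *MRPL32* (bL32), whose product is cleaved on import by the m-AAA protease before it joins the ribosome, lay near the middle of the family, with signals of 562, 753 and 605 and a log2 ratio of 0.42 in *spt3Δ*.

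In the small subunit, 9 of 28 genes (32.1%) were at least 1.5-fold higher in *spt3Δ*, against 19.6% of all genes. *RSM22*, which is related to methyltransferases, had signals of 112 in WT, 237 in *spt3Δ* and 109 in *spt8Δ*. It was 2.11-fold above WT in *spt3Δ* alone, and its *spt8Δ* signal was 1.03-fold below WT. *MRP10* (mS37), a small protein with twin cysteine motifs, had signals of 899, 1787 and 1395, so both mutants lay above WT, *spt3Δ* by 1.99-fold and *spt8Δ* by 1.55-fold. *RSM27* (mS33) had 447, 865 and 635, which is 1.94-fold and 1.42-fold above WT. *MRP13* (mS44) had 510, 969 and 634, and *RSM28* (mS46) had 299, 542 and 360, with *spt3Δ* 1.90-fold and 1.81-fold above WT. In both of these genes the *spt8Δ* signal was closer to WT than to *spt3Δ*.

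The other small-subunit genes past 1.5-fold were *RSM18*, *RSM25*, *MRPS17* and *MRP21*. *RSM18* (bS18) had signals of 982 in WT, 1661 in *spt3Δ* and 1134 in *spt8Δ*, a 1.69-fold difference in *spt3Δ*. The gene for its partner in the bacterial ribosome, *MRP17* (bS6), had 652, 890 and 681, a 1.37-fold difference. *RSM25* (mS23) was 1.64-fold, *MRPS17* (uS17) 1.60-fold and *MRP21* (bS21) 1.53-fold above WT in *spt3Δ*, against 1.13-fold, 1.04-fold and 1.13-fold in *spt8Δ*. *MRPS16* (bS16) was just short of the line, with signals of 1052, 1578 and 1088 and a log2 ratio of 0.58 in *spt3Δ*.

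The subunits did not stand apart in their medians. The median log2 ratio in *spt3Δ* was 0.41 for the 37 large-subunit genes, 34 of them above 0, and 0.41 for the 28 small-subunit genes, 26 of them above 0. In *spt8Δ* the medians were 0.082 and 0.065. The difference of large minus small was −0.0073 in *spt3Δ* and 0.018 in *spt8Δ*. Under loess it was 0.029 and 0.036. The ratios in *spt3Δ* ran from −0.18 to 1.12 in the large and from −0.33 to 1.08 in the small subunit.

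**Figure D2:**
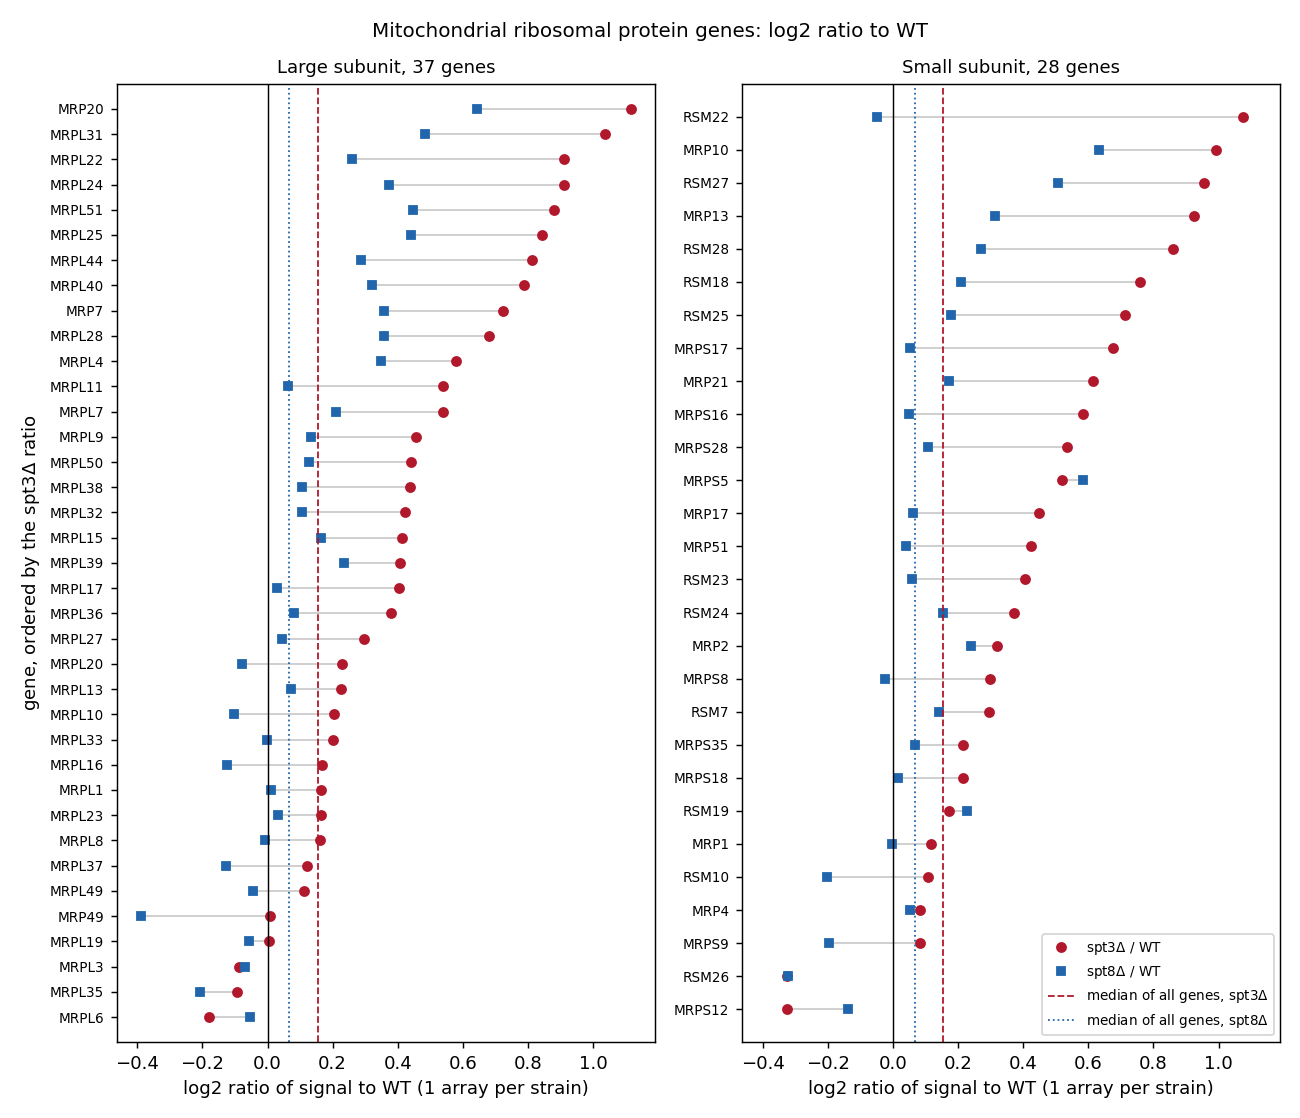
log2 ratio of signal to WT (x axis) for each of the 37 large-subunit genes (left) and 28 small-subunit genes (right), ordered by the *spt3Δ* ratio, with red circles for *spt3Δ*, blue squares for *spt8Δ*, 1 array per strain, and vertical lines at 0 and at the medians of all genes (dashed red 0.15, dotted blue 0.067). The red circle lies to the right of the blue square in 59 of the 65 genes.

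Below WT in *spt3Δ* were 5 of the 65 genes, and the same 5 were among the 19 below WT in *spt8Δ*, all within 1.5-fold. Both ratios use the same WT array, so their agreement in sign is not independent. The share of all genes below WT in both mutants is not given here. *MRPS12*, the counterpart of uS12 of the decoding center, had signals of 2697 in WT, 2151 in *spt3Δ* and 2452 in *spt8Δ*, which is 1.25-fold and 1.10-fold below WT. *RSM26* (mS42), of the superoxide dismutase fold, had 1131, 902 and 905, so both mutants lay 1.25-fold below WT and next to each other. The related *MRP1* (mS43) had 1232, 1336 and 1229, with log2 ratios of 0.12 and −0.0038. *MRPL6* (uL6) had 895, 791 and 863, *MRPL35* (mL38) had 478, 448 and 414, and *MRPL3* (mL44), of the ribonuclease III family, had 876, 824 and 834. The log2 ratios of these 3 were −0.18, −0.093 and −0.088 in *spt3Δ*.

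*MRP49* (mL61) and *MRPL19*, whose product is the counterpart of uL11 at the base of the stalk, were level with WT in *spt3Δ*, at log2 ratios of 0.0063 and 0.0060. *MRP49* was the lowest MRP gene in *spt8Δ*, with signals of 1276 in WT, 1282 in *spt3Δ* and 975 in *spt8Δ*, a 1.31-fold difference below WT. *RSM10* (uS10), with 926, 999 and 805, and *MRPS9* (uS9), with 1561, 1652 and 1363, likewise lay slightly above WT in *spt3Δ* and below it in *spt8Δ*. *MRPL1* (uL1), *MRPL23* (uL13) and *MRPS35* (mS45) lay nearest to the medians of all genes in both mutants. Their log2 ratios were 0.17, 0.16 and 0.22 in *spt3Δ* and 0.010, 0.032 and 0.067 in *spt8Δ*.

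In *spt8Δ*, the MRP genes as a group lay at the level of all genes. Their median log2 ratio was 0.072, against 0.067 for all genes, and 33 of 65 lay above the median of all genes. A log2 ratio above 0 was found in 46 of 65, as in 58.9% of all genes. Only *MRP20* and *MRP10* were at least 1.5-fold higher, 2 genes or 3.08% of the family against 5.19% of all genes, and no MRP gene was 1.5-fold lower, against 4.50% of all genes. *MRPS5*, the counterpart of uS5, was just inside that line, with signals of 183 in WT, 263 in *spt3Δ* and 275 in *spt8Δ*. Its *spt8Δ* signal was the highest of the 3, as was that of *RSM19*. The ratios in *spt8Δ* ran from −0.39 to 0.64 with an SD over genes of 0.22. The SD was 0.48 over all genes and 0.38 over the 5268 above background on all arrays. No MRP gene passed 2 SD, which 1.63% of all genes did upward and 2.13% downward. Under loess the median of the MRP genes in *spt8Δ* was −0.026 and that of all genes −0.0026, so the sign of the family's median in this strain depends on the scaling.

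Both comparisons with WT use the same WT array, so the mutants were also set directly against each other, which leaves that array out. In 59 of 65 MRP genes the signal in *spt3Δ* was above that in *spt8Δ*, against 58.9% of all genes. The median log2 ratio of *spt3Δ* to *spt8Δ* was 0.31, against 0.086 for all genes, and 56 MRP genes lay above that median. At least 1.5-fold higher in *spt3Δ* than in *spt8Δ* were 5 MRP genes (7.69%), against 7.45% of all genes, and none was 1.5-fold lower, against 5.69%. The 5 were *RSM22* at 2.18-fold, *MRPL22* at 1.57-fold, *MRPS17* at 1.54-fold, *MRP13* at 1.53-fold and *RSM28* at a log2 ratio of 0.59. The 6 genes with a lower signal in *spt3Δ* than in *spt8Δ* were *MRPS12*, *MRPL6*, *MRPS5*, *RSM19*, *MRPL3* and *RSM26*, with log2 ratios from −0.19 to −0.0044. Under loess the median of the direct ratio was 0.18, against −0.0053 for all genes.

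The MRP proteins can also be sorted by their family names, in which u marks proteins shared by all ribosomes, b those shared with bacteria and m those found only in mitochondria. A family name was given for 64 of the 65, all but *RSM22*. In *spt3Δ* the median log2 ratio was 0.29 for the 27 universal, 0.44 for the 13 bacterial and 0.41 for the 24 mitochondria-specific proteins. All 13 bacterial ones were above 0, from 0.11 for *MRPL49* (bL21) to 0.91 for *MRPL24*. At least 1.5-fold higher were 4 universal (14.8%), 4 bacterial (30.8%) and 10 mitochondria-specific genes (41.7%), against 19.6% of all genes. The universal proteins of the small subunit were lowest, with a median of 0.25 over 12 genes, against 0.44 over the 15 of the large subunit. Under loess the 3 medians in *spt3Δ* were 0.060, 0.24 and 0.13. In *spt8Δ* they were 0.052, 0.11 and 0.11. This sorting was made after the values were seen, and the differences between classes are smaller than the spread within them, which had an SD of 0.32 in the universal and 0.40 in the mitochondria-specific class.

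MRP genes with lower signals tended to have higher ratios. Across the 65 genes, Pearson's r between the mean log2 signal of the 3 arrays and the log2 ratio was −0.40 for *spt3Δ* and −0.32 for *spt8Δ*, and Spearman's rho was −0.35 and −0.31. Across all 5449 genes r was −0.012 and −0.065, and rho was −0.17 and −0.10. These genes share the same arrays and scaling and are not independent replicates. In *spt3Δ* the 22 dimmest MRP genes had a median log2 ratio of 0.56 with 10 genes 1.5-fold higher, the 22 in the middle had 0.42 with 6, and the 21 brightest had 0.20 with 3. Of all genes at any signal 19.6% were 1.5-fold higher, and no share at matching signal is given here. The 3 in the brightest group were *MRP10*, *MRPL31* and *RSM18*, whose WT signals were 899, 961 and 982. The trend of all genes also varied with signal in *spt3Δ*, being highest at the signal level of the dimmer MRP genes. After its removal *MRPL31*, *MRP10*, *MRP20* and *RSM22* had log2 ratios of 0.92, 0.86, 0.78 and 0.75 in *spt3Δ*.

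**Figure D3:**
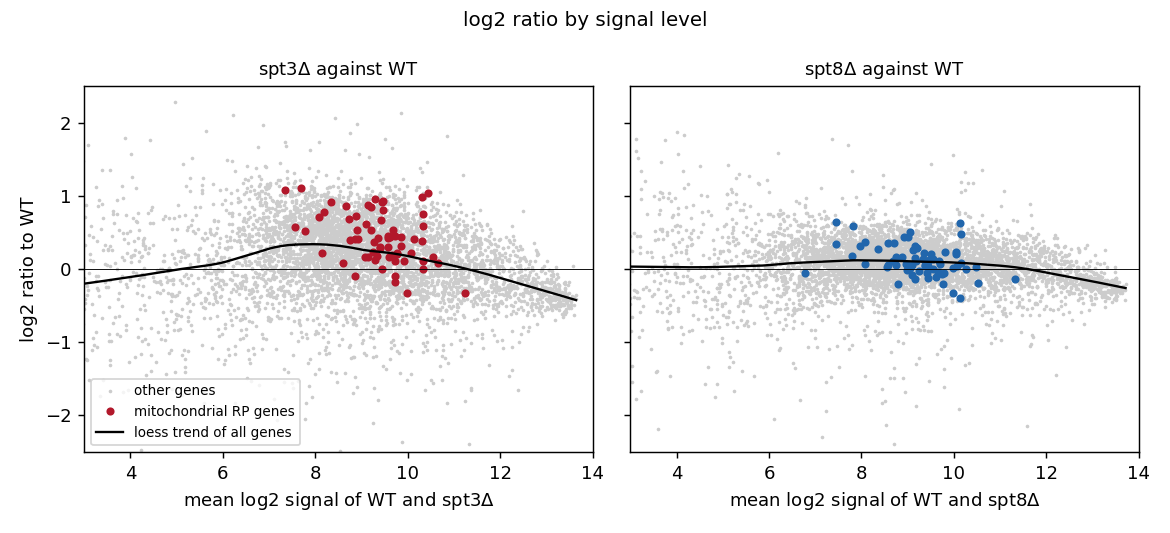
log2 ratio to WT (y axis) against the mean log2 signal of the mutant and WT (x axis) in *spt3Δ* (left) and *spt8Δ* (right), with 1 point per gene, gray for other genes and color for the 65 mitochondrial ribosomal protein genes, and a black loess trend of all genes, without the genes beyond the axes. In *spt3Δ* the trend lies above 0 where most MRP genes lie, and the MRP genes are spread mostly above it (45 of 65 lay above the median of all genes once it was removed).

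The position of the genes was read from the order of protein-coding genes in the R64 assembly. No MRP gene was among the 8 outermost genes of a chromosome arm and none was next to *SPT3* or *SPT8*. The genes beside the MRP genes lay at the level of all genes. The 117 measured neighbors that are not MRP genes had a median log2 ratio of 0.15 in *spt3Δ* and 0.050 in *spt8Δ*, and the MRP gene was above its neighbor in 80 of 118 pairs in *spt3Δ*. The 34 neighbors that are transcribed away from an MRP gene on its upstream side had a median of 0.26 in *spt3Δ*, against 0.086 for the other 83. The MRP gene was above such an upstream neighbor in 19 of 34 pairs, and above the other neighbors in 61 of 84 pairs. No share is given here for MRP genes paired with genes elsewhere, so these counts of pairs say nothing about position. *MRP20* was above both its neighbors. The drug transporter gene *PDR15* downstream had a log2 ratio of −1.40 in *spt3Δ*. The RNA polymerase II subunit gene *RPB7*, upstream and transcribed away from *MRP20*, had −0.35, below the median of such neighbors. *MRP2*, with signals of 823, 1026 and 972, lies next to the sulfate assimilation gene *MET16*, whose log2 ratios were 1.98 in *spt3Δ* and 1.12 in *spt8Δ*. The only MRP genes next to each other were *RSM19* (uS19) and *MRPS12*, which had log2 ratios of 0.17 and −0.33 in *spt3Δ*.

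Some proteins of the mitochondrial ribosome do not carry these names. Of 14 such genes 13 were measured, and *VAR1*, which is encoded in the mitochondrial genome, was not analysed here. In *spt3Δ* 11 of the 13 had a log2 ratio above 0 with a median of 0.25, or 0.019 under loess, and 5 (38.5%) were at least 1.5-fold higher. Of all genes, 61.2% were above 0 and 19.6% were 1.5-fold higher, and their median was 0.15, or −0.0057 under loess. *FYV4* (small subunit) had signals of 244 in WT, 479 in *spt3Δ* and 323 in *spt8Δ*, which is 1.96-fold above WT in *spt3Δ*. *YML6*, the counterpart of bacterial L4, was 1.73-fold and *IMG2* 1.67-fold higher in *spt3Δ*. In *spt8Δ* the median of the 13 was 0.13. *MRP8*, left out above, had signals of 1812, 2041 and 1874 and log2 ratios of 0.17 and 0.048, near the medians of all genes.

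Genes that act with the mitochondrial ribosome were read as lists, none of which was tested. Translation factors (8 of 9 genes) had a median log2 ratio to WT of 0.36 in the *spt3Δ* strain, or 0.027 under loess, and of 0.13 in the *spt8Δ* strain. *IFM1*, the initiation factor, had signals of 56.5, 150 and 95.4, and both mutants lay above WT, *spt3Δ* by 2.66-fold and *spt8Δ* by 1.69-fold. *RRF1*, the ribosome recycling factor, was 1.71-fold above WT in *spt3Δ*, whereas *TUF1*, the elongation factor Tu, had 2110, 1690 and 2066. *FMT1*, the formyltransferase, was not above background on any array, and is left out of these medians. Assembly factors and membrane receptors of the ribosome (12 genes) had medians of 0.44 and 0.15, the first of which was 0.13 under loess. The highest in *spt3Δ* were *OXA1*, the membrane insertase that binds the ribosome, at 1.98-fold, *YTA12*, a subunit of the protease that processes Mrpl32, at 1.86-fold, and the helicase gene *MSS116* at 1.83-fold. *AFG3*, the other subunit of that protease, had a log2 ratio of 0.16, and *MBA1*, a ribosome receptor, had −0.41.

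Mitochondrial aminoacyl-tRNA synthetases (13 genes) had a median of 0.21 for *spt3Δ* and of 0.048 for *spt8Δ*, which were −0.13 and −0.073 under loess. In *spt3Δ* 1 gene (7.69%) was 1.5-fold higher, *MSF1* of phenylalanine, against 19.6% of all genes. The genes of leucine (*NAM2*) and isoleucine (*ISM1*) had log2 ratios of 0.48 and 0.46 in *spt3Δ*. Translational activators of single mitochondrial mRNAs (14 genes) had medians of 0.24 and 0.021, or 0.0019 and −0.096 under loess, with *PET309*, the activator of *COX1* mRNA, 1.59-fold higher in *spt3Δ* and *CBS1*, of cytochrome *b* mRNA, at a log2 ratio of 0.57. *PET122* had 8.70 in WT, 9.44 in *spt3Δ* and 18.1 in *spt8Δ*, all close to background. The 7 regulator genes had medians of 0.59 and 0.36, or 0.26 and 0.25 under loess. Among them *PUF3* had signals of 128, 133 and 128, nearly the same in all 3 strains. The subunit genes of the Hap complex, an activator of respiratory genes, had log2 ratios in *spt3Δ* of 0.60 for *HAP2*, 0.84 for *HAP3*, 0.67 for *HAP5* and −0.56 for the activating subunit gene *HAP4*. *HAP4* had signals of 469 in WT, 317 in *spt3Δ* and 656 in *spt8Δ*, so the mutants lay on opposite sides of WT.

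**Figure D4:**
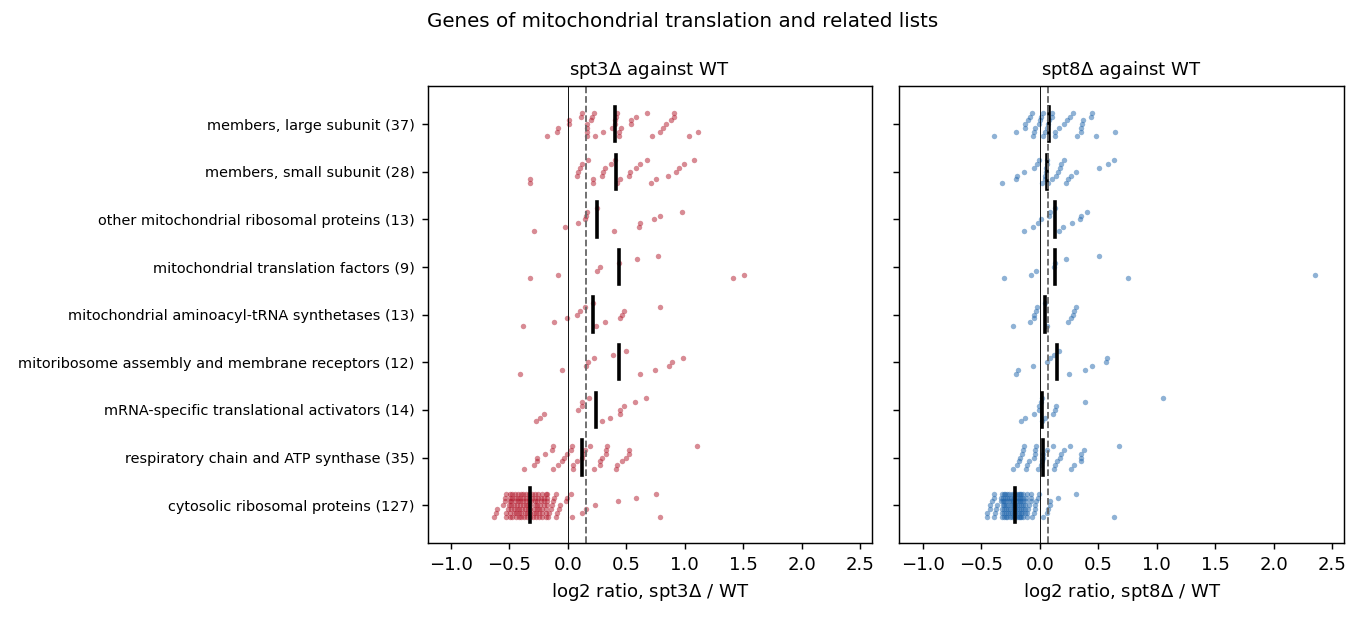
log2 ratio to WT (x axis) of the genes of each list (y axis, number of genes measured in brackets) in *spt3Δ* (left) and *spt8Δ* (right), with 1 point per gene, a black bar at the list's median, a dashed line at the median of all genes and a thin line at 0 (the translation factors include *FMT1*, which was at background). In *spt3Δ* both subunits of the mitochondrial ribosome have medians of 0.41, the respiratory chain and ATP synthase 0.12 and the cytosolic ribosomal proteins −0.33, which becomes 0.0085 after loess.

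Subunits of the respiratory chain and ATP synthase, some of whose partners are made on mitochondrial ribosomes, had medians near those of all genes as reported. Their 35 nuclear genes had median log2 ratios of 0.12 in *spt3Δ* and 0.028 in *spt8Δ*, against 0.15 and 0.067 for all genes. Under loess these were 0.074 and −0.024, against −0.0057 and −0.0026. That 0.074 was above the 0.019 of the other mitochondrial ribosomal proteins and below the 0.18 of the MRP genes. At least 1.5-fold higher in *spt3Δ* was 1 gene (2.86%), *QCR6* at 2.15-fold, against 19.6% of all genes. *QCR2* and *ATP19* followed with log2 ratios of 0.52 each. For the 127 measured cytosolic ribosomal protein genes the median was −0.33 for *spt3Δ* and −0.21 for *spt8Δ*, and 9 and 8 of them were above 0. *RPS31*, for example, had log2 ratios of −0.63 in *spt3Δ* and −0.42 in *spt8Δ*. *RPS19A* had a log2 ratio of 0.79 in *spt3Δ*, and *RPL41A*, on a shared probe set, had 0.75. The cytosolic genes are far brighter, and under loess their medians were 0.0085 in *spt3Δ* and −0.016 in *spt8Δ*. In *spt3Δ* the median of the MRP genes stayed above that of the cytosolic genes in that setting, at 0.18, whereas in *spt8Δ* it was −0.026.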

How the data were processed

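The authors amplified total RNA of 3 strains, 1 array each, with a 3′ IVT kit, hybridized it to Affymetrix yeast arrays and processed the scans with Microarray Suite at default settings. MAS5 and Affymetrix Expression Console are listed in the submitters' processing notes, without a version. The deposited intensity values hold a linear-scale signal for each probe set, with means trimmed by 2% at each end of 500.4, 500.3 and 500.3 in WT, *spt3Δ* and *spt8Δ*. Detection calls were not used here.

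Of 10928 probe sets, 5498 were assigned to 1 *S. cerevisiae* gene through the platform annotation and the R64 gene table. Log2 signals were averaged over probe sets of a gene, giving 5449 genes, 47 of them with several probe sets. Background was the 95th percentile of 1746 *S. pombe* probe sets of each array. Calls were a distance of 2 SD from the mean of all genes, computed here on log2 ratios, and 1.5-fold. With 1 array per group no test was possible, and the number of arrays limits the precision.

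The MRP genes were taken by name, but this family, the lists of related genes and all alternatives were chosen with earlier results of these data known. The rule for genes named in the text took those past a call, the 6 highest and 6 lowest ratios in each mutant, the 4 largest differences between mutants in each direction, the 3 nearest to the medians of all genes, and the 3 largest ratios of each list. Others, such as *MRPL4*, *MRPL32*, *MRP1*, *MRP17*, *MRPS16*, *MRP2*, *AFG3*, *MBA1*, *TUF1*, *PUF3* and *HAP4*, and the neighbors *PDR15*, *RPB7* and *MET16*, were added after their values were seen. Alternatives were quantile and loess (span 0.3) normalization, centring on array medians, 50 added to each signal, genes above background only, leaving out shared probe sets, and thresholds of 2-fold or 2 robust SD (1.4826 times the median absolute deviation). The lists were other mitochondrial ribosomal proteins, translation factors, aminoacyl-tRNA synthetases, assembly factors and receptors, translational activators, respiratory chain and ATP synthase, cytosolic ribosomal proteins and regulators. The steps were tested on simulated data before use, with Python 3.11.15, pandas 2.3.3 and statsmodels 0.14.6. No sequences were used here.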

Additional observations from a re-analysis of the deposited data

Results flagged for a closer look

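*RSM22* had a log2 ratio of 1.08 in *spt3Δ* and of −0.048, nearly level with WT, in *spt8Δ*. Like *MRP49*, *RSM10* and *MRPS9*, it was above WT in *spt3Δ* and below it in *spt8Δ*. The difference between the mutants was not tested, since each strain has 1 array and both ratios use the same WT array. *RSM22* had the lowest WT signal of the 65 MRP genes, 112, which was above the background of 7.17.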

How the results depend on the processing

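With 1 array per strain these settings show the dependence on processing only, and no left-out replicate could be tried. No paired analysis was possible because each strain has 1 array. The median log2 ratio of the MRP genes in *spt3Δ*, 0.41 as reported, was 0.23 after quantile normalization, 0.17 with arrays centred on the median of all genes and 0.18 after loess. Its distance from the median of all genes, 0.25 as reported, was 0.20, 0.25 and 0.19 in these settings. The median ratio of *spt3Δ* to *spt8Δ*, 0.31 as reported, was 0.20, 0.17 and 0.18. In *spt8Δ* the median of 0.072 was −0.0056, −0.026 and −0.026, a change of sign. MRP genes at least 1.5-fold higher in *spt3Δ*, 19 as reported, were 13 after quantile normalization, 11 with centred arrays and 10 after loess. These counts were 20%, 16.9% and 15.4% of the family, against 29.2% as reported. Of all genes, 11.05%, 8.59% and 9.08% were 1.5-fold higher in *spt3Δ* in these settings, against 19.6% as reported. In *spt8Δ* the 2 genes became 0 after quantile normalization, 0 with centred arrays, 0 after loess and 1 with 50 added to each signal. The shares of all genes were 4.02%, 3.65%, 3.76% and 1.65% in these settings, against 5.19% as reported. At a threshold of 2-fold, 3 MRP genes were higher in *spt3Δ*, namely *MRP20*, *RSM22* and *MRPL31*, against 0 at 2 SD, a bound of 2.78-fold. The share of all genes past 2-fold is not given here, so this count has no level to be read against. For the 33 MRP genes that the naming rule took, 126 of 396 ratios under 6 alternatives moved by at least 0.1, 52 of them after loess. Of these 396, 33 changed sign, 11 of them after loess, none of them a ratio past 1.5-fold. MRP genes with a ratio above 0, 60 in *spt3Δ* and 46 in *spt8Δ* as reported, numbered 41 and 31 with centred arrays and 44 and 30 after loess. The level of 0 moved for all genes too, whose medians with centred arrays were −0.083 and −0.030. Above the median of all genes lay 52 and 33 MRP genes both as reported and with centred arrays, and 45 and 30 after loess.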
